A study of Saccharomyces cerevisiae with 4 samples.

Results

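The AAD genes of budding yeast encode putative aryl-alcohol dehydrogenases of the aldo-keto reductase superfamily, and the family here comprised AAD3, AAD4, AAD6, AAD10, AAD14, AAD15 and AAD16. Its members were taken as all probe sets whose platform annotation names at least 1 of these 7 genes, of 5923 genes the annotation names in all, with no filter on signal. This gave 6 probe sets of the 9275 that are not array controls. Of these, 5 name a single member (AAD4 on 2 probe sets, and AAD6, AAD10 and AAD14 on 1 each). The remaining 1 names AAD3 and AAD15 together and is reported apart. AAD16 is named by no probe set.

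RNA was measured in 4 cultures of Saccharomyces cerevisiae on 1-colour Affymetrix arrays, 2 from a wild-type strain and 2 from an H3 K4,36,79R strain, in which arginine takes the place of lysines 4, 36 and 79 in histone H3. All 4 cultures grew in selective galactose medium and were taken at 0 h. In galactose the wild-type H3 gene of the mutant strain is still expressed, per the design text, because mutant H3 becomes the only H3 after a later move to glucose. The labels give neither the parent strain nor the selection markers. The question is how far the 2 strains were already apart before the move.

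Aldo-keto reductases use NADPH or NADH to reduce aldehydes and ketones to alcohols. The yeast AAD genes were named for their similarity to an aryl-alcohol dehydrogenase of the lignin-degrading fungus Phanerochaete chrysosporium, and a physiological substrate in yeast is not firmly established. AAD4 and AAD6 are known for induction under oxidative stress through the transcription factor Yap1. The genes lie near chromosome ends, where silencing by the Sir proteins acts and where the methyltransferases of H3 lysines 4 and 79, Set1 and Dot1, are known to affect it. Set2 methylates lysine 36.

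In the gene order of the RefSeq table, every listed member lay close to an end. AAD3 (YCR107W, chromosome III, right end) and AAD15 (YOL165C, chromosome XV, left end) each had 1 protein-coding gene between themselves and the end. AAD4 (YDL243C, chromosome IV, left end) and AAD10 (YJR155W, chromosome X, right end) had 5, and AAD14 (YNL331C, chromosome XIV, left end) had 6. AAD6 (YFL056C, chromosome VI, left end) had 10 and is annotated as a pseudogene. The annotated lengths were 1131 bases for AAD14, 1127 for AAD6, 1092 for AAD3, 990 for AAD4, 867 for AAD10 and 432 for AAD15, the shortest of the family. The table has no gene named AAD16 and lists YFL057C as an older name of AAD6.

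Replicate arrays, galactose growth and strain markers were checked as follows. Median deposited signals ranged from 38.6 to 47.6 over the arrays. GAL1, the galactokinase gene induced by galactose, was read at 1058 to 1454. Histone H3 was read only on 3 probe sets whose annotation names both HHT1 and HHT2, so the genotype was not checked by them. URA3, a common selection marker, read 14.1 and 14.6 in wild-type cultures against 594 and 643 in mutant cultures. Summed over 10 ribosomal RNA controls, signal was 1280 and 1343 on the wild-type arrays against 585 and 413 on the mutant arrays, and its part in the AAD values was not tested.

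The highest differences of the family were on the 2 probe sets annotated to AAD4. On probe set 6710_at the wild-type cultures read 22.9 and 21.8 and the mutant cultures 47.6 and 51.9 (deposited signal). The mutant cultures were both high, the wild-type cultures both low, and the groups did not overlap. After a pseudocount of 2.4 and centring of each array on its median gene, the wild-type log2 level was -2.04 ± 0.01 and the mutant level -0.85 ± 0.02 (SD, n = 2 each). The difference, mutant minus wild type, was 1.18 (SE 0.21), or 2.27-fold. The gap between the lowest mutant and the highest wild-type array was 1.16, against replicate differences of 0.02 and -0.02.

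The second AAD4 probe set, 5423_s_at, read 147 and 180 in wild-type cultures against 282.5 and 367 in mutant cultures. Again both mutant cultures lay above both wild-type cultures, although the replicates of each group were further apart. The wild-type log2 level was 0.70 ± 0.26 and the mutant level 1.78 ± 0.16 (SD, n = 2 per group), with a difference of 1.09 (SE 0.20), or 2.12-fold. The suffix of this probe set marks sequence that matches more than 1 transcript by design, although the annotation names only AAD4, as it names a single gene for 433 of the 654 tested probe sets with this suffix. Its number falls between probe sets of YFL067W and AAD6, in a run that follows the left end of chromosome VI, whereas AAD4 is on chromosome IV. How much of its signal came from AAD4 and how much from the AAD6 locus cannot be told apart, so AAD4 rests on probe set 6710_at.

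**Figure D1:**
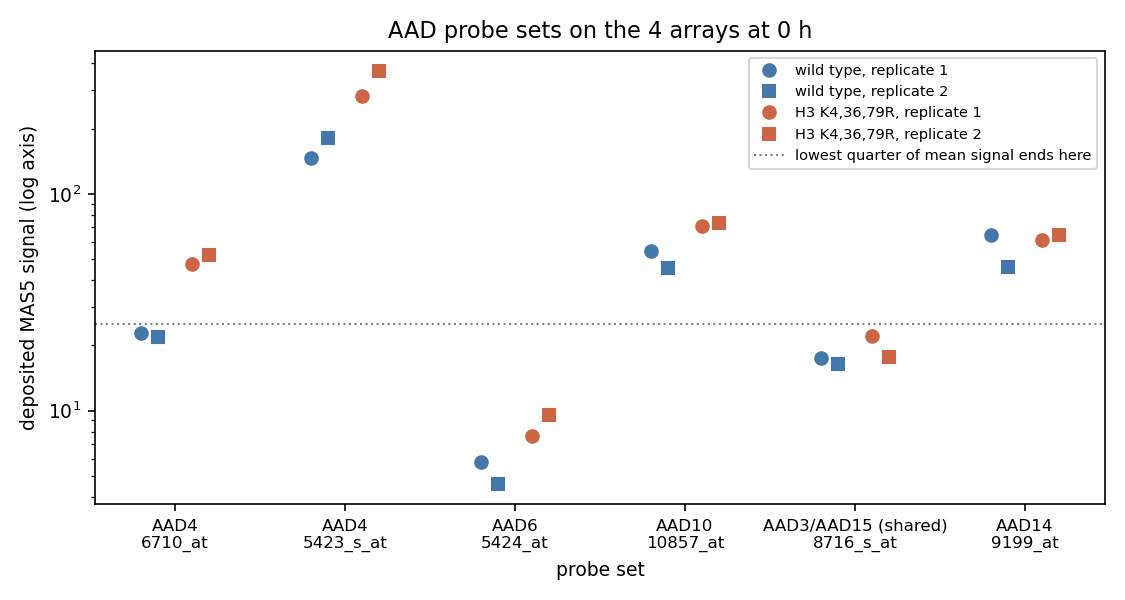
Deposited MAS5 signal (log axis) of the 6 AAD probe sets on the 4 arrays; circles are replicate 1, squares replicate 2, blue the wild type and orange the mutant, and the dotted line marks the 24.9 below which the lowest 25% of single-gene probe sets lie. Both AAD4 probe sets have the mutant arrays well above the wild-type arrays, while AAD14 has wild-type replicate 1 (64.8) above both mutant arrays (61.0 and 64.2) before centring.

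AAD6, the partner of AAD4 in the known response to oxidative stress, was dim on its own probe set. It read 5.8 and 4.6 in wild-type cultures against 7.63 and 9.5 in mutant cultures, all under 24.9, the value that bounds the lowest 25% of single-gene probe sets. The groups did not overlap, and the difference was 0.64 (SE 0.25). At this signal the pseudocount weighs on the value, which was 0.41 with a pseudocount of 8.9 and 0.83 with none.

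AAD10 (867 annotated bases, shorter than AAD14) read 54.3 and 45.3 in wild-type cultures against 71.2 and 73.3 in mutant cultures. Both mutant cultures were higher than both wild-type cultures. The wild-type log2 level was -0.97 ± 0.12 and the mutant level -0.33 ± 0.07 (SD, n = 2 each). The difference was 0.63 (SE 0.19), or 1.55-fold.

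AAD14, the longest member, read 64.8 and 45.8 in wild-type cultures against 61.0 and 64.2 in mutant cultures. The deposited signals of the groups overlapped, and after centring the mutant arrays lay above the wild-type arrays by a gap of only 0.07. The difference was 0.30 (SE 0.22), smaller in size than the -0.40 between the wild-type replicates (second minus first). Leaving out wild-type replicate 1 gave 0.50, leaving out the second gave 0.10, and no centring gave 0.19.

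The probe set shared by AAD3 and AAD15 read 17.4 and 16.4 in wild-type cultures against 22.15 and 17.75 in mutant cultures, also under the bound of 24.9. The groups did not overlap, although mutant replicate 2 stood close to the wild type. The difference was 0.32 (SE 0.26), with -0.43 between the mutant replicates (second minus first). Leaving out mutant replicate 1 gave 0.10, and leaving out the second gave 0.53. The probe set does not say which of the 2 genes gave the signal.

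All 6 probe sets were thus higher in the mutant on the centred log2 scale, which 54% of all tested probe sets were. The 5 single-member probe sets had a median difference of 0.64, beside 0.03 over all tested probe sets. In 6 of 6 both mutant arrays lay above both wild-type arrays, beside 23.7% of all tested probe sets. In 2 of 6, both named for AAD4 by the annotation, the difference was at least 1, beside 0.755%. The family was chosen on results of this same contrast, the mutant against wild-type differences at 0 h, so these counts and medians describe the chosen probe sets and nothing is read from their excess over the background.

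In the limma fit over all 9275 probe sets, 0 of the 6 passed a Benjamini-Hochberg adjusted p of 0.05, beside 0.0108% of all, which was URA3 alone. At an unadjusted p under 0.05 there were 4 of the 6 (both named for AAD4, and those of AAD6 and AAD10), beside 7.82% of all. This count too comes from the contrast on which the family was chosen, so nothing is read from its excess over the background. Ranked from the highest difference among all tested probe sets, 6710_at of AAD4 came 34th and 5423_s_at came 50th. AAD6 came 392nd, AAD10 398th, the shared AAD3 and AAD15 probe set 1699th and AAD14 1807th. The probe sets named for AAD4 thus had the largest differences. AAD14 and the shared probe set were the smallest and lay within their SEs of each other. An array reads the RNA of a whole culture, so a larger number of expressing cells and more RNA per cell cannot be told apart.

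**Figure D2:**
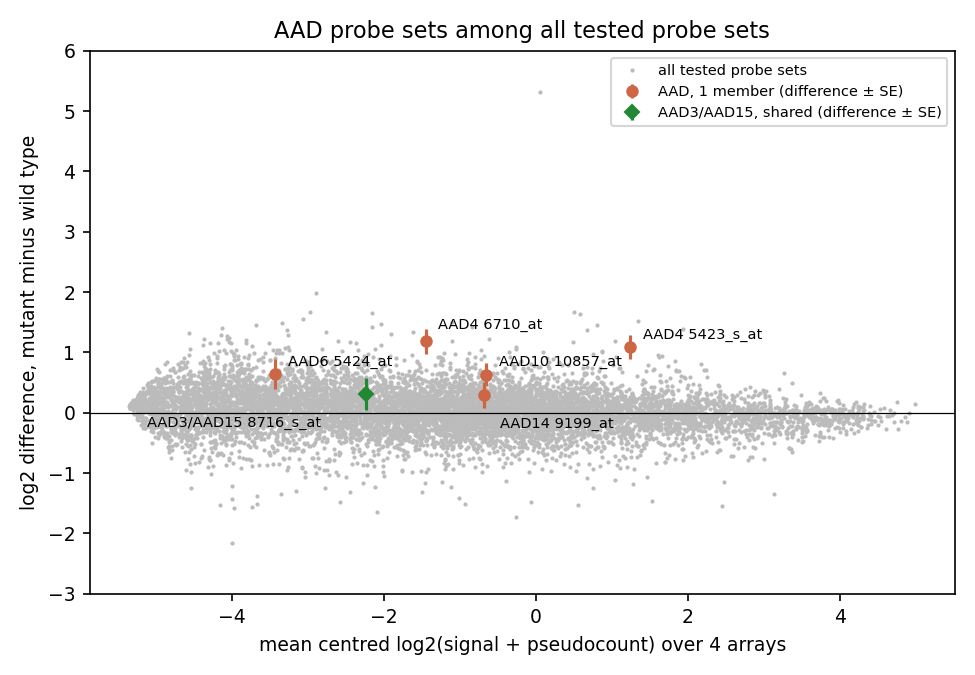
Log2 difference (mutant minus wild type) against the mean centred log2 level over the 4 arrays for all 9275 tested probe sets (grey), with single-member AAD probe sets in orange and the shared AAD3 and AAD15 probe set in green, each ± SE. The AAD4 probe sets, at 1.18 and 1.09, stand at the upper edge of the grey cloud, while AAD14 (0.30) and the shared probe set (0.32) stand inside it.

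The median absolute difference between wild-type replicates was 0.17 over the 5 single-member probe sets, beside 0.31 over all tested probe sets. Between mutant replicates it was 0.10, beside 0.17. Larger in size than these background values were 5423_s_at in both groups (0.37 and 0.23) and AAD14 in the wild type (-0.40). The family was chosen on this contrast, so nothing is read from these medians against the background. No direction turned under the other ways of processing that gave a value. These were 7 for AAD6, 8 for 6710_at and for the shared probe set, and 9 for the rest. Among them, the filters, the fit without trend and the replicate block leave the difference of a probe set unchanged by construction. The 4 fits that left out 1 array could not turn a direction either. In each AAD probe set both mutant arrays lay above both wild-type arrays after centring. AAD4 on 6710_at ranged from 1.01 to 1.27 over other processing and from 1.17 to 1.20 without 1 array. AAD4 on 5423_s_at ranged from 0.90 to 1.27 without 1 array.

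**Figure D3:**
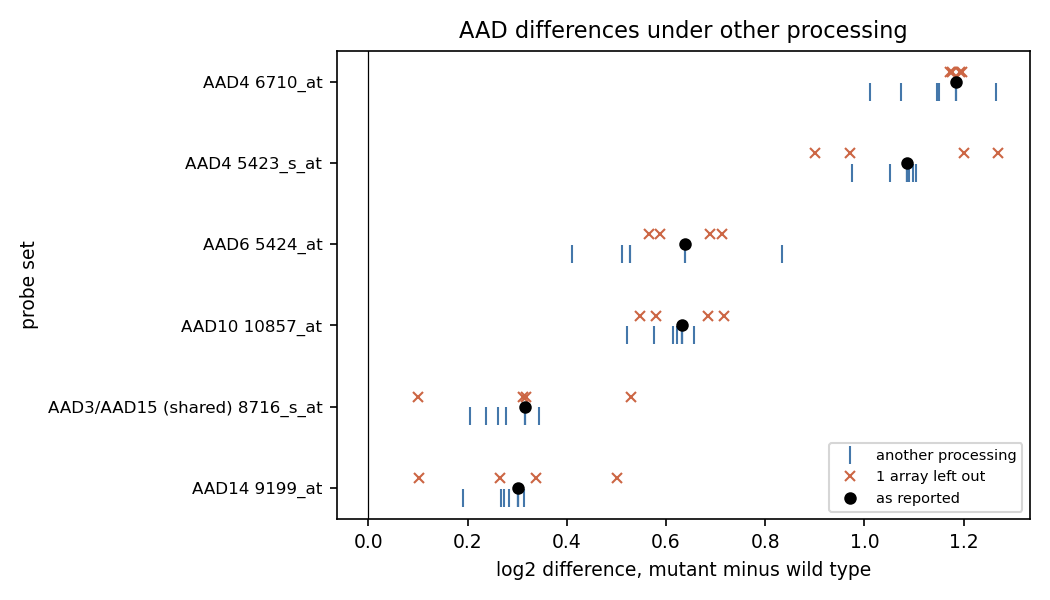
Log2 difference (mutant minus wild type) of each AAD probe set as reported (black), under other processing (blue bars) and with 1 array left out (orange crosses). All values lie above 0, with the lowest at 0.10 for AAD14 and for the shared AAD3 and AAD15 probe set. Values without 1 array could not fall below 0, as both mutant arrays lay above both wild-type arrays after centring.

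The genes next to the AAD genes were examined because the loci resemble each other. In the RefSeq gene order, AAD4, AAD6, AAD10 and AAD14 each have a gene of the THI5 family, which makes the pyrimidine precursor of thiamine, as an immediate neighbour (THI13, THI5, THI11 and THI12). All 4 THI genes were read on 1 shared probe set, at 41.7 and 115.4 in wild-type cultures against 28.3 and 24.0 in mutant cultures. Its difference was -1.23 (SE 0.45), opposite in sign to the AAD probe sets, with the wild-type replicates far apart. AAD6 and AAD14 also share SNZ and SNO neighbours, which act in vitamin B6 synthesis, and AAD4 and AAD10 share sorbitol dehydrogenase and HXT hexose transporter neighbours. The shared SNZ2 and SNZ3 probe set differed by 0.10 (SE 0.26) and that of SNO2 and SNO3 by -0.26 (SE 0.19). The probe set shared by HXT13, HXT15, HXT16 and HXT17 differed by 0.51 (SE 0.21). That of the sorbitol dehydrogenase genes SOR1 and SOR2 differed by -0.13 (SE 0.19).

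Of the 32 genes within 3 protein-coding steps of an AAD gene, 18 had a probe set of their own by the annotation. Only 8 of these lay above the bound on low signal. The probe sets of PAU3 and YCR108C, among the 18, carry a suffix for sequence shared with relatives. On these 18 the median difference was 0.21, beside 0.01 over all 5656 genes with a probe set of their own. Of the 18, 14 were higher and 4 lower, beside 2912 and 2744 of the 5656, and 0 passed the adjusted threshold. In 9 of the 18 both mutant arrays lay above both wild-type arrays, beside 1281 of the 5656. In 1 both lay below, beside 973. DAK2, a dihydroxyacetone kinase gene 3 genes from AAD6, read 36.1 and 41.8 in wild-type cultures against 60.2 and 58.8 in mutant cultures, a difference of 0.70 (SE 0.21). AGP3, an amino acid permease gene directly beside AAD6, was dim at 4.5 and 2 against 7.3 and 8.25. Its difference was 0.99 (SE 0.28). YDL241W near AAD4 differed by 0.34 (SE 0.20), PEX6 near AAD14, a peroxisome assembly gene, by 0.10 (SE 0.17) and LRG1 near AAD4, a GTPase-activating protein gene, by -0.01 (SE 0.22). Neither AAD4 neighbour reached the AAD4 differences. AGP3 and DAK2 lay above AAD6 (0.64), while AQY3, between them, lay below at 0.135 (SE 0.18). Beside AAD3, RDS1 (0.43) and YCR108C (0.49) lay above the shared AAD3 and AAD15 probe set (0.32), and PAU3 (0.21) and ADH7 (0.24) below. Near AAD10, AAD14 and AAD15, the neighbours with a probe set of their own lay below the AAD value. Whether any AAD gene differed from its neighbours was not tested.

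**Figure D4:**
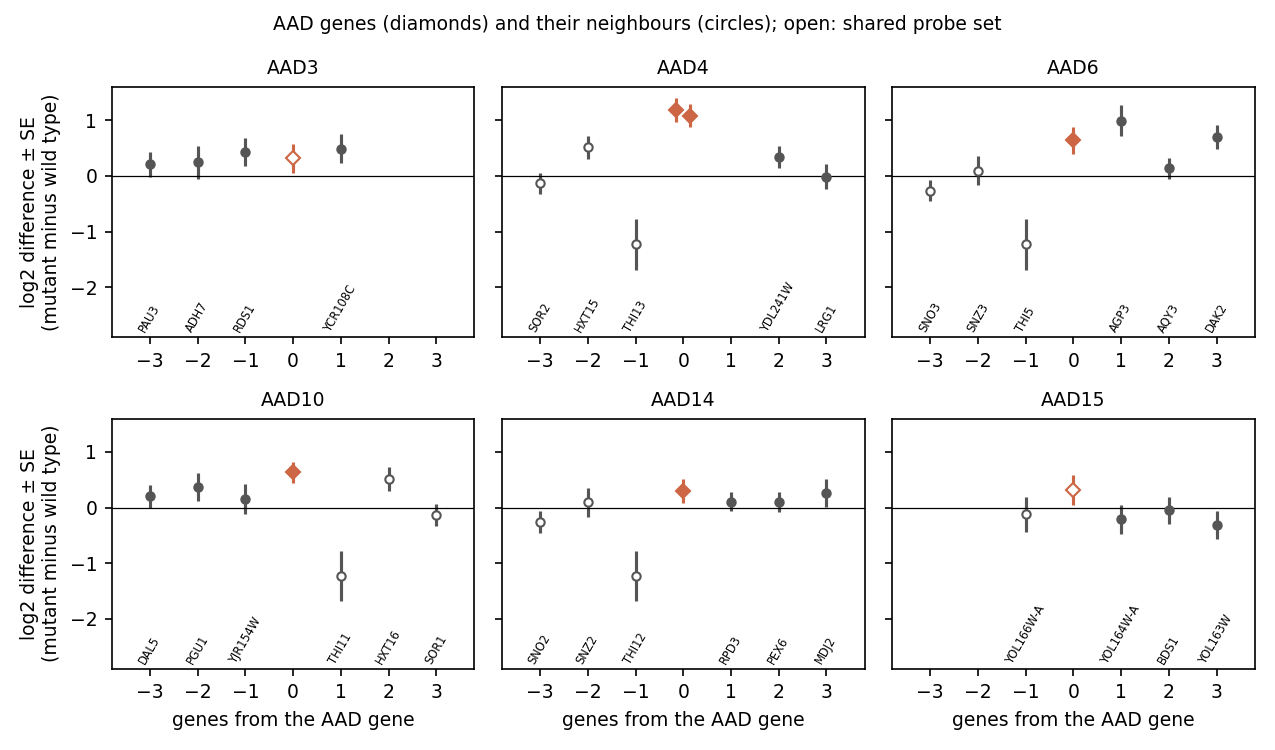
Log2 difference (mutant minus wild type) ± SE of 6 AAD genes (diamonds) and of up to 3 protein-coding genes on either side (circles), by gene steps along the chromosome; open symbols are probe sets shared by several genes. AAD4 stands above its measured neighbours, and the shared THI probe set at -1.23 appears beside AAD4, AAD6, AAD10 and AAD14. AGP3 and DAK2 stand above AAD6.

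The chromosome ends as a whole were examined next. Of the 315 genes among the 10 outermost of each end, without the AAD genes, 198 had a probe set of their own. Of these 96 were higher and 102 lower in the mutant, beside 2912 and 2744 of the 5656 genes with a probe set of their own. The median was -0.01, beside 0.01, and 0 were past the threshold. In 45 of the 198 both mutant arrays lay above both wild-type arrays, beside 1281 of the 5656. In 47 both lay below, beside 973. The differences above the bound on low signal reached from COS8 (-1.73) and COS7 (-1.47), of a subtelomeric membrane protein family, to GTT2 (0.99) and the zinc transporter gene ZRT1 (1.39). The COS7 probe set carries a suffix for sequence shared with relatives.

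Yap1 and oxidative stress genes were set beside the AAD family because AAD4 and AAD6 respond to Yap1. All 32 had a probe set, and 16 were higher and 16 lower in the mutant, with a median of 0.01 and 0 past the threshold. YAP1 itself read 63.0 and 62.1 in wild-type cultures against 56.4 and 71.2 in mutant cultures, overlapping groups with a difference of 0.13 (SE 0.19). In 8 of the 32 both mutant arrays lay above both wild-type arrays, beside 1281 of the 5656 genes with a probe set of their own. In 2 of the 32 both lay below, beside 973 of the 5656. The highest were GTT2, a glutathione S-transferase gene (34.9 and 38.8 against 71.5 and 68.0, difference 0.99, SE 0.21), and GSH1, of glutathione synthesis (0.80, SE 0.27). The lowest were the mitochondrial superoxide dismutase gene SOD2 (-0.25, SE 0.26) and the efflux transporter gene ATR1 (-0.20, SE 0.26).

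The Ehrlich pathway, which turns amino acids into fusel alcohols and ends in the reduction of aldehydes, had 21 genes measured. Of these 12 were higher and 9 lower, with a median of 0.04 and 0 past the threshold. In 6 of the 21 both mutant arrays lay above both wild-type arrays, beside 1281 of the 5656 genes with a probe set of their own. In 3 both lay below, beside 973. ARO10, the phenylpyruvate decarboxylase gene that supplies aromatic aldehydes, read 64.9 and 47.8 in wild-type cultures against 92.7 and 107 in mutant cultures, a difference of 0.92 (SE 0.20). PDR12, a weak acid efflux pump gene, differed by 0.66 (SE 0.22). At the other end, the alcohol dehydrogenase gene ADH5 differed by -0.78 (SE 0.21) and the pyruvate decarboxylase gene PDC6 by -0.77 (SE 0.33).

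Among 7 aldo-keto reductase genes outside the family, 4 were higher and 3 lower, with a median of 0.15 and 0 past the threshold. In 3 of the 7 both mutant arrays lay above both wild-type arrays, beside 1281 of the 5656 genes with a probe set of their own. In 1 both lay below, beside 973. YPL088W, a putative aryl-alcohol dehydrogenase gene, read 121.6 and 106 in wild-type cultures against 136 and 166 in mutant cultures, a difference of 0.51 (SE 0.17). YDL124W differed by 0.93 (SE 0.44), with its wild-type replicates at 89.9 and 251.9. The arabinose dehydrogenase gene ARA1 (-0.15, SE 0.21) and YPR1 (-0.12, SE 0.17) were lowest.

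For AAD10, AAD14 and the brighter AAD4 probe set (5423_s_at), whose mean signals were above the bound on low signal, the genes that ran most like them over the 4 arrays were sought among 4576 genes, by the Euclidean distance of log2 values after each gene's own mean was removed. Nearest to AAD4 on 5423_s_at was HBT1 (distance 0.07, difference 1.03), followed by the glutamate dehydrogenase gene GDH3 (0.23, difference 0.95) and NNR2 (0.26, difference 0.86). Nearest to AAD10 were OPY2 (0.10), YJL132W (0.10) and EXG2 (0.12), an exoglucanase gene. Nearest to AAD14 were the translocon gene SEC61 (0.02), the ceramide synthase gene LAC1 (0.03) and the SUMO protease gene ULP1 (0.04). The distances rest on 4 arrays and are a description.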

How the data were processed

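The deposited values are intensities, 1 linear MAS5 signal per probe set, and per the submitters' processing notes the authors used MAS5; its version and target are not stated there. Trimmed means of the arrays were 125, 125, 105 and 120, and centring removes such factors. Members and gene lists were chosen with earlier results of these data known. Names came from the platform annotation, and gene order and lengths from the RefSeq table of assembly R64, in which all 5656 gene IDs matched.

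Log2 was taken after adding 2.4, the 10th percentile of signals. Each array was centred on its median over the 4878 single-gene probe sets above the lowest 25% of mean signal. All 9275 non-control probe sets were fitted, unfiltered, with limma 3.58.1 in R 4.3.3 (lmFit, eBayes with trend, 2 residual degrees of freedom and 5.2 from the prior). The threshold was a two-sided Benjamini-Hochberg adjusted p of 0.05. The log2(signal + 2.4) scale understates changes of dim genes. The model was tested on simulated data, with changes larger than any AAD difference and only at levels above the bound on low signal. That test does not cover changes of the AAD size. Groups came from the titles, and the design text speaks of replicate cultures. The number of arrays limits the precision. Gene lists used each gene's brightest probe set.

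Named were all members, the 2 highest and 2 lowest genes of each list above the bound on low signal, and the 3 genes nearest in pattern to AAD4, AAD10 and AAD14, the members above that bound. AGP3, AQY3, RDS1, YCR108C, PAU3, ADH7 and YAP1 were added after their values were seen. So were the shared THI, SNZ, SNO, HXT and SOR probe sets and the checks URA3 and GAL1. Alternatives covered centring, pseudocount, filter, trend, replicate block, probe set mean and each array left out. Protein identities and promoter motifs were planned and are not analysed here. Tables and figures were made in Python 3.11.15 (numpy 2.4.6, pandas 2.3.3, matplotlib 3.10.9).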

Additional observations from a re-analysis of the deposited data

How the results depend on the processing

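The number of probe sets past the threshold, 1 as reported, was 3 with the larger pseudocount and 10 with the replicate block. It ranged from 1 to 21 without 1 array, with 21 when wild-type replicate 1 was left out and 2 when mutant replicate 2 was, and such limma fits keep 1 residual degree of freedom and assume that the lone array varies like the other group. URA3 was among them in each of these fits, and 0 AAD probe sets were, with the lowest adjusted p of a member between 0.0685 (wild-type replicate 1 left out) and 0.666 (mutant replicate 1 left out). The median AAD difference, 0.64, was 0.53 without centring, 0.83 without a pseudocount and 0.86 with the lowest 25% of probe sets left out, which removes AAD6. It ranged from 0.565 to 0.716 without 1 array. Without centring the median over all tested probe sets was -0.08 instead of 0.03. Same-numbered replicates did not deviate together (correlation 0.02 over 4878 probe sets), and the labels name no shared batch, so the numbers were not taken as pairs and no AAD call turned with the block. The list medians of Yap1 and Ehrlich genes took either sign, from -0.13 to 0.18 and from -0.16 to 0.28 without 1 array. That of the other aldo-keto reductases lay between -0.013 and 0.31 without 1 array, and that of the chromosome ends between -0.12 and 0.019 over all alternatives. That of the AAD neighbours stayed between 0.10 and 0.28. The AAD6 probe set and the one shared by AAD3 and AAD15 have mean signals under the bound on low signal, and AAD6 moved most with the pseudocount. AAD14 (0.30) and the shared probe set (0.32) changed order under some alternatives, such as cyclic loess (0.28 and 0.24).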
